A study of Mus musculus with 6 samples.

Results

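The 40 genes described here encode the enzymes that make, recycle and use glutathione, the thioredoxin and peroxide-removing enzymes, the enzymes that supply NADPH to them, and the transcription factor NRF2 with its inhibitor KEAP1. They were chosen by gene symbol, and each of the 40 has a row among the 24594 rows of the deposited count table. Mouse small-intestinal organoids, which are cultured epithelial mini-guts, were grown from single cells for 96 h until crypts and villus-like regions had formed, and then received NIBR-LTSi at 5 uM or a matching volume of its solvent DMSO for 24 h. NIBR-LTSi blocks the Hippo kinases LATS1 and LATS2, which restrain YAP and TAZ, co-activators of transcription. There are 3 RNA sequencing libraries in each group, named here by group and replicate number. The labels give no strain, sex or age for the source mice, or whether each library came from its own culture, so the p-values refer to the spread among these libraries, which may be technical.

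Glutathione is a cysteine-containing tripeptide and the main soluble thiol of the cell. Glutamate-cysteine ligase and glutathione synthetase build it, peroxidases and transferases spend it on peroxides and on reactive chemicals, and glutathione reductase restores it with NADPH. NRF2, encoded by Nfe2l2, is held by KEAP1 and degraded in unstressed cells. When KEAP1 is modified by oxidants or electrophiles, NRF2 accumulates, pairs with a small MAF protein and binds antioxidant response elements in many of these genes. The small intestine carries high amounts of glutathione transferases and meets many electrophiles from the diet.

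With NIBR-LTSi, Gclc, Gss and Gsr, which make and reduce glutathione, were higher, while thioredoxin, catalase, Sod1, Gpx1 and 3 peroxiredoxins were lower. Of the 40 genes, 10 were higher with NIBR-LTSi, 17 were lower and 13 were not called (edgeR quasi-likelihood test over all genes, Benjamini-Hochberg adjusted p under 0.05). The share called was 67.5%, beside 42.0% over all 12592 genes tested, of which 22.8% were higher and 19.2% lower. Scaling by library totals alone gave 13 higher and 17 lower among the 40, and turned the split over all genes from 2866 higher and 2421 lower into 3425 and 1921. These are abundant genes: 32 of the 40 had a mean of at least 100 CPM (read counts scaled to library size with TMM factors), where 24 were called, 9 of them higher and 15 lower. Of all genes at that level 56.3% were called, 22.5% higher and 33.8% lower. The changes were small. The median log2 fold change (NIBR-LTSi over DMSO) was -0.07 for the 40 and 0.02 for all genes, and the median absolute value was 0.20 for the 40 and 0.19 for all genes. Only Gclc and Ggt1 were called with a change of at least 1.5-fold, against 10.9% of all genes tested. In 28 of the 40 genes every library of one group lay beyond every library of the other, as it did in 52.5% of all genes tested.

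**Figure D1:**
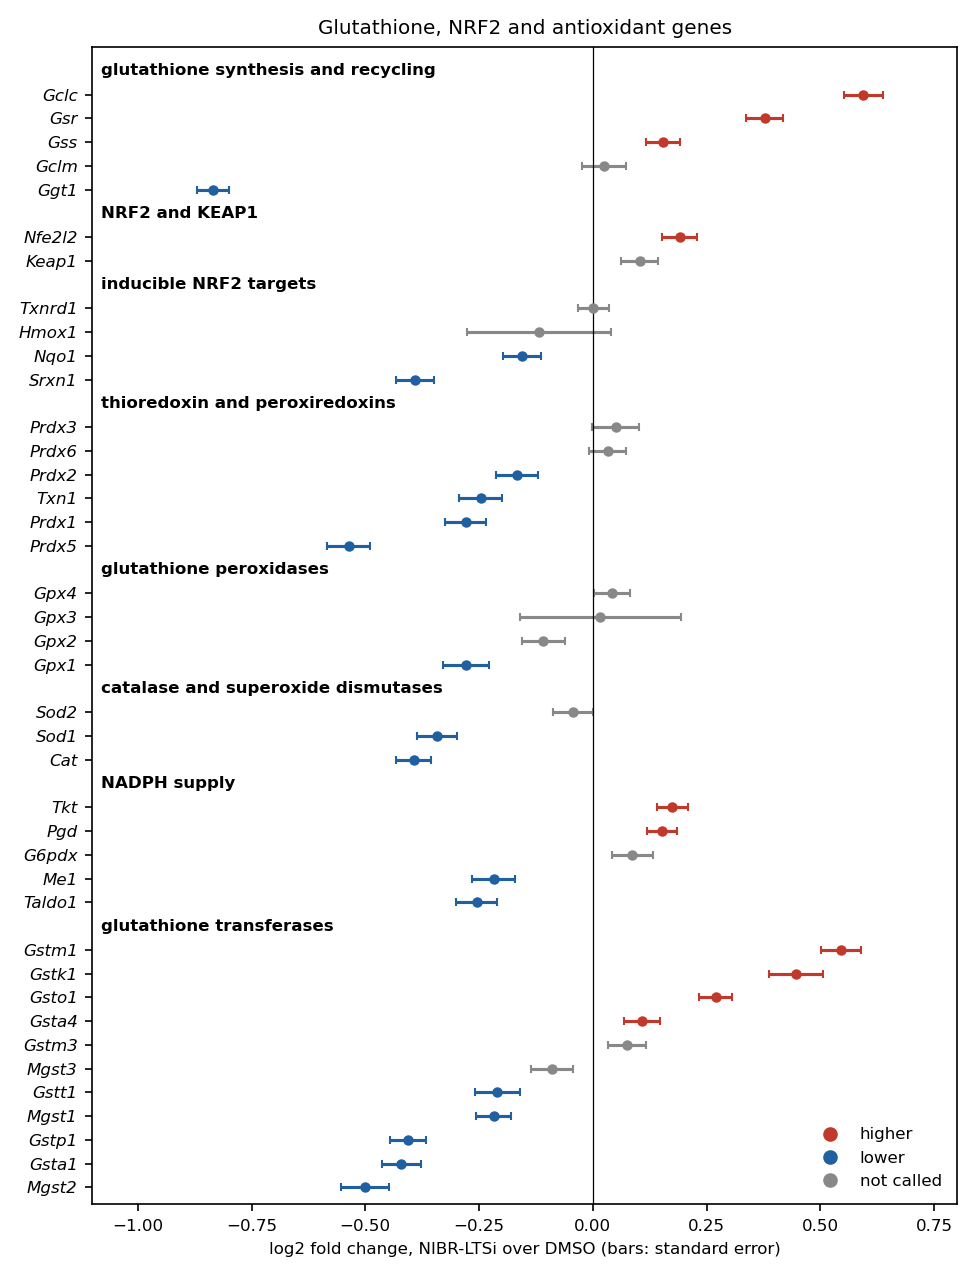
Log2 fold change (NIBR-LTSi over DMSO, 3 libraries each) with its standard error for the 40 genes, grouped by role and coloured by call at an adjusted p under 0.05. Gclc stands furthest to the right at 0.59 and Ggt1 furthest to the left at -0.84, and no gene of the thioredoxin, peroxidase and catalase groups is called higher.

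Library totals ranged from 18395427 to 26767043 counts. The groups separated along the first principal component (51.3% of the variance). Along the second (31.2%) libraries of the same group lay apart, NIBR-LTSi replicate 1 being the most extreme. The epithelial list (Epcam, Cdh1, Vil1, Krt8, Krt18, Krt20 and Cdx2) summed to 6410 to 6490 CPM with DMSO and 6910 to 7380 CPM with NIBR-LTSi, with 2 of 7 higher and 1 lower. Leukocyte, endothelial and mesenchymal markers were at most 9.61, 0.614 and 8.11 CPM in sum, and Cd3e, Cdh5, Kdr and Dcn had no count. Epithelial composition markers moved with the treatment. Of 10 enterocyte markers 4 were higher and 5 lower, and their sum was 56700 to 58700 CPM with DMSO and 44100 to 47300 CPM with NIBR-LTSi. Of 6 proliferation markers 5 were higher and none lower, with sums of 361 to 398 and 567 to 645 CPM. Stem cell markers (1 of 5 higher, 2 lower) summed to 149 to 159 and 158 to 170 CPM, and Paneth markers (2 of 5 higher, 2 lower) to 565 to 622 and 454 to 511 CPM. Most of the stem cell sum was Smoc2, which was higher (means 127 and 146 CPM), while Olfm4 (17.5 and 8.96 CPM) and Lgr5 (3.05 and 1.89 CPM) were lower. Goblet markers (1 of 6 higher, 1 lower) summed to 2590 to 2980 and 2900 to 3210 CPM, and enteroendocrine markers (1 of 5 higher, 2 lower) to 393 to 411 and 312 to 323 CPM. Clca1 (means 234 and 792 CPM) was the only goblet marker with a higher mean. Spink4 (213 and 129 CPM) was lower, and the other goblet markers were not called. The 4 tuft markers, none of them called, summed to 3.97 to 4.49 and 3.46 to 4.87 CPM. The part of these shifts in the changes of the 40 genes was not tested, and in bulk RNA fewer cells of a type and less RNA per cell cannot be told apart.

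Glutathione synthesis and recycling had 3 of 5 genes higher, 1 lower and 1 not called. Gclc, the catalytic and rate-limiting subunit of glutamate-cysteine ligase (Entrez 14629; chromosome 9, 77754535 to 77794489 in RefSeq GRCm38.p6, as for all positions given), was at 143, 141 and 146 CPM in DMSO replicates 1 to 3 and at 207, 216 and 226 CPM in NIBR-LTSi replicates 1 to 3. The groups did not overlap, and Gclc rose 1.51-fold (log2 fold change 0.59 ± 0.04 SE, adjusted p = 5.75e-07). Its modifier subunit Gclm (chromosome 3, 122245487 to 122267215), which raises the ligase's affinity for its substrates, was at 144, 153 and 137 CPM with DMSO and 148, 142 and 151 CPM with NIBR-LTSi. These values interleave, and Gclm was not called (log2 fold change 0.02 ± 0.05, adjusted p = 0.722); its exons overlap the transcript Gm17494 on the opposite strand and 244 bases of the pseudogene Gm6061 on the same strand, so its count is uncertain there. The ratio of Gclc to Gclm counts was 0.992, 0.922 and 1.07 in the DMSO libraries and 1.4, 1.52 and 1.5 in the NIBR-LTSi libraries, a comparison of RNA that says nothing of the protein subunits.

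Gss, glutathione synthetase, which adds glycine in the last step, had 176, 175 and 178 CPM with DMSO and 197, 201 and 191 CPM with NIBR-LTSi. Every treated library was higher, by a small margin (1.11-fold, log2 fold change 0.15 ± 0.04, adjusted p = 0.00568). Leaving out NIBR-LTSi replicate 2 ended this call (adjusted p = 0.0687). Exons of Acss2 and of antisense transcripts overlap Gss on the opposite strand. Gsr, the reductase that returns oxidised glutathione to its thiol form (chromosome 8, 33653238 to 33698162), rose more clearly, from 184, 196 and 189 CPM to 255, 238 and 247 CPM (1.30-fold, log2 fold change 0.38 ± 0.04, adjusted p = 1.66e-05).

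Ggt1, the cell-surface gamma-glutamyltransferase that begins the breakdown of extracellular glutathione (Entrez 14598; chromosome 10, 75561076 to 75586193), moved the other way. It was at 346, 339 and 341 CPM with DMSO and at 191, 195 and 189 CPM with NIBR-LTSi. No gene of the 40 changed more: it fell 1.78-fold (log2 fold change -0.84 ± 0.03, adjusted p = 7.53e-09), and the libraries within each group differed by a few CPM only. The summed level of the 5 genes was 991 to 1004 CPM with DMSO and 993 to 1005 CPM with NIBR-LTSi, because the fall of Ggt1 was about as large in CPM as the rises together.

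**Figure D2:**
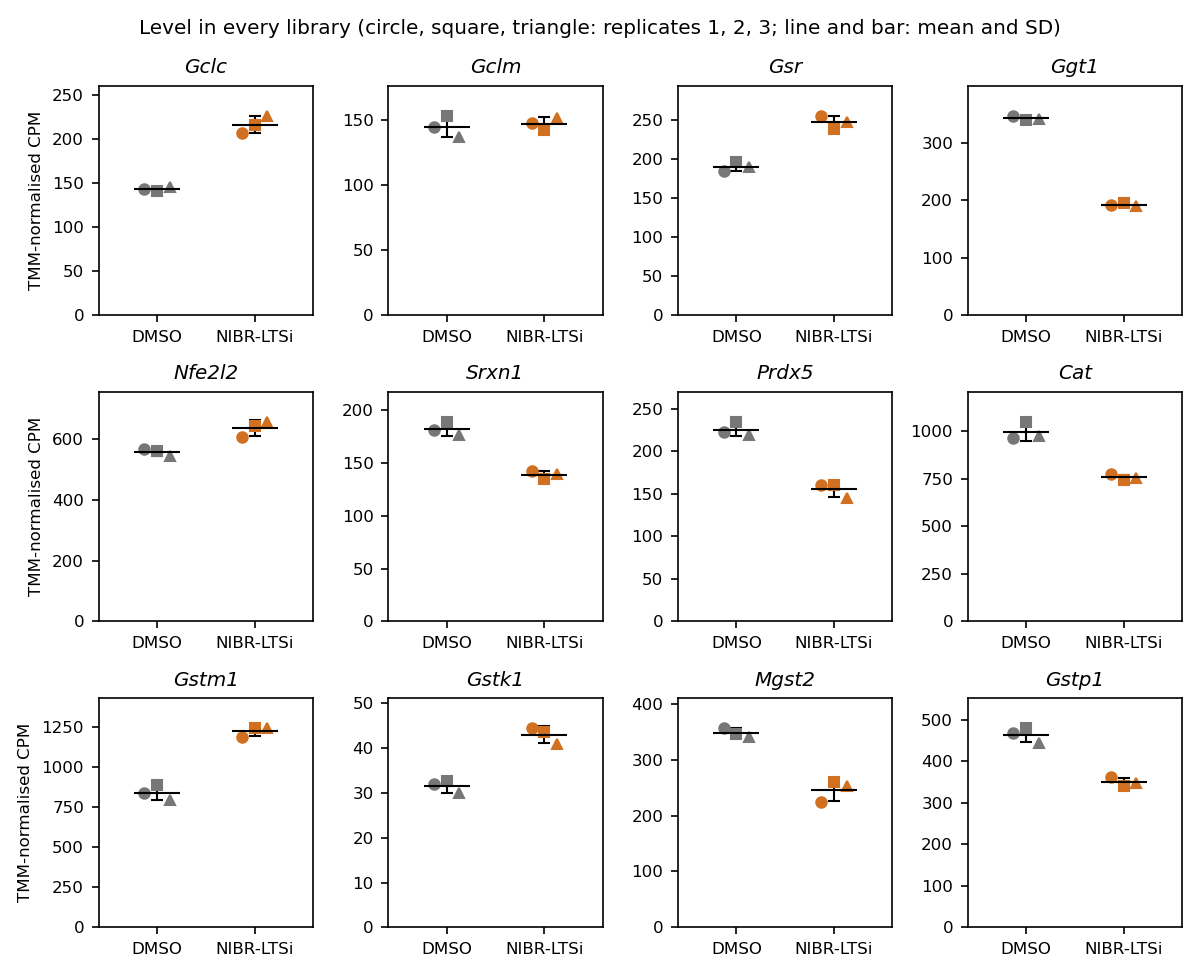
TMM-normalised CPM in each of the 6 libraries for 12 of the genes, with the mean and SD (n = 3) per group and each axis starting at 0. Gclm is the panel in which the groups overlap; Ggt1 falls from 339 to 346 CPM to 189 to 195 CPM, and Gstm1 rises from 790 to 886 CPM to 1187 to 1241 CPM.

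The regulator pair itself moved little. Nfe2l2 (Entrez 18024; chromosome 2, 75675513 to 75704663) was at 567, 561 and 544 CPM with DMSO and 606, 644 and 657 CPM with NIBR-LTSi. All treated libraries were above all controls, and Nfe2l2 rose 1.14-fold (log2 fold change 0.19 ± 0.04, adjusted p = 0.00177). Keap1, the substrate adaptor that presents NRF2 for degradation (chromosome 9, 21229730 to 21239332), was at 76.4, 75.1 and 75.7 CPM and at 79.9, 81.4 and 82.5 CPM. Its groups did not overlap either, but it was not called (log2 fold change 0.10 ± 0.04, adjusted p = 0.0659; 0.0149 with library totals only), and an antisense transcript overlaps 510 bases of its exons. NRF2 is regulated mainly as a protein, which these counts do not measure.

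None of the 4 genes grouped here as inducible NRF2 targets was higher. NRF2 acts on many genes of the other groups too, where calls went both ways (Gclc, Gsr and Gstm1 higher, Prdx1 and Gstp1 lower, for example). Srxn1, sulfiredoxin, which repairs over-oxidised peroxiredoxins (chromosome 2, 152105524 to 152111376), was at 181, 189 and 176 CPM with DMSO and 142, 135 and 140 CPM with NIBR-LTSi. It fell 1.31-fold with no overlap between the groups (log2 fold change -0.39 ± 0.04, adjusted p = 1.42e-05). Nqo1, the quinone reductase (chromosome 8, 107388225 to 107403205), was at 127, 135 and 133 CPM and at 120, 116 and 118 CPM. It fell 1.11-fold (log2 fold change -0.16 ± 0.04, adjusted p = 0.00966). Txnrd1, the selenoprotein that reduces thioredoxin (chromosome 10, 82833951 to 82897724), was at 357, 361 and 364 CPM and at 362, 367 and 354 CPM. Its groups overlapped and the difference was smaller than its standard error (log2 fold change 0.00 ± 0.03, adjusted p = 0.981). Hmox1, heme oxygenase 1, was scarce at 3.48, 4.67 and 3.45 CPM with DMSO and 3.56, 3.52 and 3.55 CPM with NIBR-LTSi (adjusted p = 0.585), and at 69 to 97 counts per library a small change was not detectable.

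Promoter sequence was available in RefSeq (GRCm38.p6, the assembly of mm10) for 35 of the 40 genes, as 47 windows from 250 bases before to 50 bases after a start site. Gclc, Gsr, Gsta4, Hmox1 and Prdx6 had no window. The core of the antioxidant response element, TGACNNNGC on either strand, was found in 13 of the 47 windows (27.7%) and in 12.4% of all 32851 windows. A second motif of the same length, TGANTCAGC, fixes more bases and fits the core only where its N is C. It was found in 4 of the 47 windows (8.51%) and in 1.19% of all windows. The windows with the second motif belonged to Srxn1, Prdx1, Gstp1 and Me1, all of them lower with NIBR-LTSi. In Prdx1 and Me1 the same bases fit the core, while in Srxn1 and Gstp1 the N is G and they do not. Either form was present in 7 of the 17 lower genes with a window, in 2 of the 7 higher genes and in 3 of the 11 that were not called. A match is a string of letters and not a measured binding site, several of these genes are known for such elements, and elements outside the windows were not searched. The Srxn1 window (chr2:152105274-152105573, plus strand) is shown whole, because Srxn1 was the most strongly lowered of the 4 inducible targets. Capitals mark matches to either motif, the one to TGANTCAGC beginning at position -45 from the start site.
Srxn1: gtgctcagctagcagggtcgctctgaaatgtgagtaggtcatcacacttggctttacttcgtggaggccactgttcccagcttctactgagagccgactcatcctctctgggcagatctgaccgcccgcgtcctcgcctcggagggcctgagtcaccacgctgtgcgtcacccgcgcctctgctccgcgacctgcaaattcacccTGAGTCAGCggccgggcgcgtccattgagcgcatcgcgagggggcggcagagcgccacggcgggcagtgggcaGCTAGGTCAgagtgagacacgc

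The matches of 6 further genes are set side by side to show matches to either motif in the windows of genes that fell (Prdx1, Gstp1, Me1), that rose (Nfe2l2) and that were not called (Txnrd1, Gclm). Each is written 5′ to 3′ on the strand of its gene, with the match in capitals; Prdx1, Txnrd1 and Gclm carry it on the opposite strand.
Prdx1 (chr4:116685454-116685486, plus): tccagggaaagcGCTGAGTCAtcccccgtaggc
Gstp1 (chr19:4037966-4037998, minus): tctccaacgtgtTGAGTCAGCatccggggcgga
Me1 (chr9:86695900-86695932, minus): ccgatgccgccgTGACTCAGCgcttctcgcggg
Nfe2l2 (chr2:75704883-75704913, minus): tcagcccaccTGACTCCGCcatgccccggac
Txnrd1 (chr10:82859102-82859134, plus): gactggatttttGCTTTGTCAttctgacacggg
Gclm (chr3:122245411-122245443, plus): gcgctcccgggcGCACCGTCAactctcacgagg
The first base of the match was at -133 from the start site in Prdx1, -74 in Gstp1, -6 in Me1, -240 in Nfe2l2, -92 in Txnrd1 and -134 in Gclm. Matches thus stood in the windows of genes of each direction. The Me1 match runs across the start site. In Pgd, the other higher gene with a match, the match began at position 4, after the start site.

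Thioredoxin and the peroxiredoxins, which reduce hydrogen peroxide through cysteine thiols, had 4 of 6 genes lower and none higher. Prdx5, a peroxiredoxin of mitochondria, peroxisomes and cytosol (chromosome 19, 6906697 to 6910106), showed the largest drop. It was at 223, 235 and 219 CPM with DMSO and 160, 161 and 145 CPM with NIBR-LTSi, a 1.45-fold fall with no overlap (log2 fold change -0.54 ± 0.05, adjusted p = 3.48e-06); exons of Trmt112 overlap 409 of its bases on the opposite strand. The abundant cytosolic peroxiredoxin gene Prdx1 fell from 823 ± 34 to 678 ± 37 CPM (SD, n = 3; adjusted p = 3.95e-04) and Txn1, thioredoxin itself, from 1141 ± 74 to 961 ± 34 CPM (adjusted p = 0.00138). Prdx2, another cytosolic form, fell 1.12-fold (log2 fold change -0.17, adjusted p = 0.0129). Leaving out NIBR-LTSi replicate 2 (adjusted p = 0.0503) or replicate 3 (0.0581) ended that call, and exons of Junb and Rnaseh2a overlap Prdx2. The mitochondrial Prdx3 (log2 fold change 0.05) and Prdx6 (0.03), whose product uses glutathione, were not called. Summed over the 6 genes, the level was 2679 to 2953 CPM with DMSO and 2301 to 2483 CPM with NIBR-LTSi.

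Catalase and the superoxide dismutases followed the same direction in 2 of 3 genes. Cat, the peroxisomal catalase (Entrez 12359; chromosome 2, 103453904 to 103485153), was at 964, 1050 and 976 CPM with DMSO and 774, 746 and 756 CPM with NIBR-LTSi. It fell 1.31-fold (log2 fold change -0.39 ± 0.04, adjusted p = 8.21e-06). Sod1, the cytosolic copper-zinc dismutase (chromosome 16, 90220762 to 90226333), was at 505, 506 and 467 CPM and at 399, 398 and 370 CPM, a 1.27-fold fall (log2 fold change -0.34 ± 0.04, adjusted p = 6.37e-05). Neither gene had overlapping groups. Sod2, the manganese dismutase of mitochondria, was not called (adjusted p = 0.454), and its libraries spanned 98.1 to 101 CPM with DMSO and 92.6 to 100 CPM with NIBR-LTSi.

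Of the 4 glutathione peroxidases only Gpx1 was called, and it was lower. Gpx1, the widespread cytosolic form (chromosome 9, 108339080 to 108340342), fell from 703 ± 48 to 580 ± 24 CPM (1.21-fold, adjusted p = 0.00107). Gpx2, the form typical of gastrointestinal epithelium and a known NRF2 target, was at 156, 175 and 164 CPM with DMSO and 156, 155 and 148 CPM with NIBR-LTSi. The groups met at 156 CPM. The log2 fold change of -0.11 ± 0.05 was not called (adjusted p = 0.0860), although it was when DMSO replicate 1 was left out (0.0474). Gpx4, which reduces lipid hydroperoxides and protects cells from ferroptosis, was at 271, 274 and 259 CPM and at 286, 276 and 265 CPM, with overlapping groups (log2 fold change 0.04 ± 0.04, adjusted p = 0.436). The secreted form Gpx3 was close to the lower limit, at 2.56 to 3.54 CPM with DMSO and 2.89 to 3.15 CPM with NIBR-LTSi.

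NADPH supply split between enzymes of one pathway. The pentose phosphate genes Tkt and Pgd rose: Tkt, transketolase (chromosome 14, 30549131 to 30574724), from 1014, 1004 and 1017 CPM to 1177, 1144 and 1104 CPM (1.13-fold, log2 fold change 0.17 ± 0.03, adjusted p = 0.00149). Pgd, the second NADPH-producing dehydrogenase of the pathway, rose from 708 ± 16 to 787 ± 5 CPM (adjusted p = 0.00262). Taldo1, transaldolase, which works beside transketolase, fell from 433 ± 17 to 363 ± 19 CPM (adjusted p = 7.12e-04). The first and committed enzyme, G6pdx, was not called at 125 ± 7 and 133 ± 2 CPM (adjusted p = 0.147). Scaling by library totals only (0.0301) or leaving out DMSO replicate 2 (0.0473) gave a call, and exons of Ikbkg overlap G6pdx. Me1, the cytosolic malic enzyme, fell from 102 ± 5 to 87.2 ± 1.7 CPM (adjusted p = 0.00269), and its exons share 30 bases with an antisense transcript.

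The 11 glutathione transferases went both ways, with 4 higher, 5 lower and 2 not called. Gstm1, a mu-class enzyme (Entrez 14862; chromosome 3, 108012250 to 108017973), rose from 839, 886 and 790 CPM to 1187, 1240 and 1241 CPM. This was a 1.46-fold rise without overlap (log2 fold change 0.54 ± 0.04, adjusted p = 1.33e-06). Gstk1, the kappa-class enzyme of mitochondria and peroxisomes (chromosome 6, 42245935 to 42250441), rose from 31.9, 32.7 and 29.9 CPM to 44.5, 43.5 and 40.8 CPM (1.36-fold, log2 fold change 0.45 ± 0.06, adjusted p = 8.16e-05). Gsto1, the omega-class enzyme with thioltransferase activity (chromosome 19, 47854973 to 47864790), was at 659, 699 and 654 CPM with DMSO and 827, 794 and 804 CPM with NIBR-LTSi (1.21-fold, log2 fold change 0.27 ± 0.04, adjusted p = 1.07e-04). All treated libraries of these 3 genes were above all controls. The call of Gsta4, which conjugates the lipid peroxidation product 4-hydroxynonenal, was weak (510 ± 24 and 549 ± 13 CPM, adjusted p = 0.0477). It was lost without DMSO replicate 1 (0.0943) or 3 (0.158), without NIBR-LTSi replicate 1 (0.0971), 2 (0.265) or 3 (0.0732), with DESeq2 size factors (0.117), in DESeq2 (0.137) and in limma-voom (0.0540).

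Among the transferases that fell, the microsomal enzyme gene Mgst2 (chromosome 3, 51636912 to 51682675) moved most, from 357, 346 and 341 CPM to 224, 260 and 254 CPM (1.42-fold, log2 fold change -0.50 ± 0.05, adjusted p = 1.74e-05). Gsta1, an alpha-class enzyme (chromosome 9, 78230669 to 78242683), fell from 623, 651 and 597 CPM to 464, 488 and 446 CPM (1.34-fold, log2 fold change -0.42 ± 0.04, adjusted p = 1.15e-05). Gstp1, the pi-class enzyme (chromosome 19, 4035411 to 4037912), fell from 468, 481 and 445 CPM to 361, 342 and 348 CPM (1.33-fold, log2 fold change -0.41 ± 0.04, adjusted p = 6.91e-06). In none of the 3 did a treated library reach the lowest control. Mgst1, the microsomal enzyme that also reduces lipid peroxides, fell 1.16-fold from 789 ± 33 CPM, and the theta-class Gstt1 1.16-fold from 92.6 ± 4.9 CPM (adjusted p = 7.24e-04 and 0.00474). Gstm3 (846 ± 46 and 891 ± 18 CPM) was not called, although it was without DMSO replicate 2 (adjusted p = 0.0452), with library totals only (0.0339) and with a correction for gene width (0.00434). Mgst3 (605 ± 35 and 568 ± 25 CPM) was called lower only without DMSO replicate 3 (adjusted p = 0.0451). The counts of Gstm1 to Gstp1 stood at 1.79, 1.84 and 1.78 to 1 with DMSO and at 3.29, 3.63 and 3.57 to 1 with NIBR-LTSi, while the sum over all 11 transferases was 5559 to 6077 CPM with DMSO and 5861 to 5952 CPM with NIBR-LTSi. Close relatives within the alpha, mu and pi classes share sequence, so their counts are uncertain where the counting could have split reads.

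Per kilobase of deposited gene width, 30 of the 40 genes were in the top 10% of tested genes with DMSO. Mean levels with DMSO were highest for Txn1 (1085 CPM per kilobase), Gpx1 (656), Gsta1 (652), Gstm3 (645) and Gstm1 (569). With NIBR-LTSi the same scale gave 915 for Txn1, 830 for Gstm1, 680 for Gstm3, 541 for Gpx1 and 487 for Gsta1, so Gstm1 moved from the fifth to the second place among these 5. The order of Gpx1, Gsta1 and Gstm3 with DMSO is not separated by the spread between libraries. At the low end stood Hmox1 (2.21 CPM per kilobase) and Gpx3 (1.62).

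**Figure D3:**
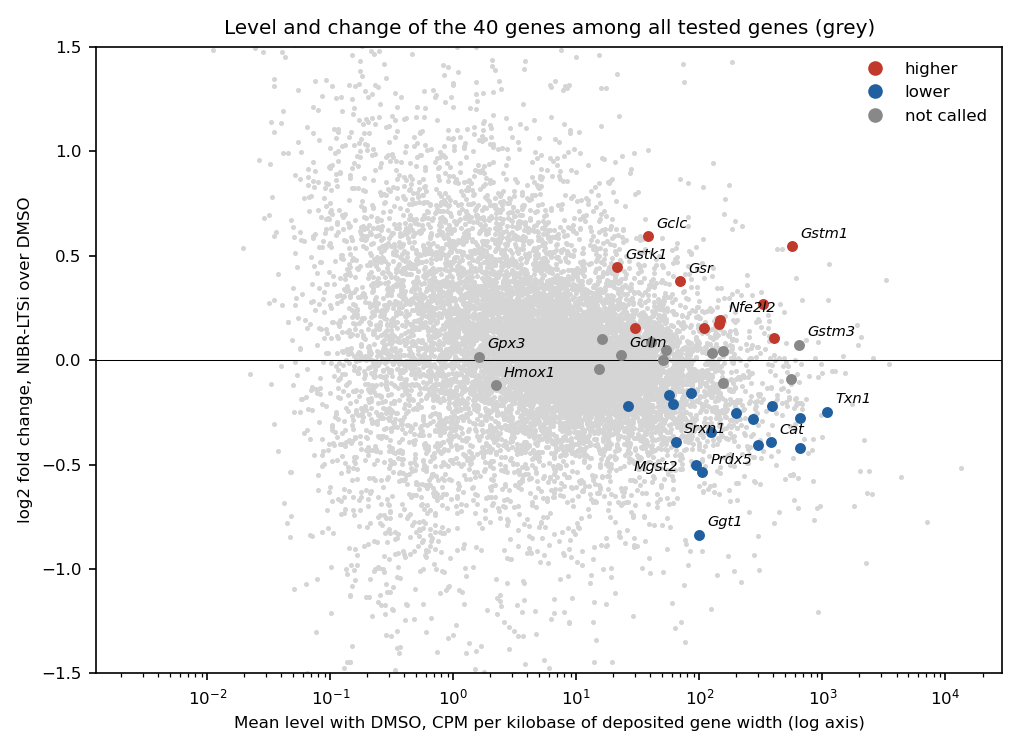
Mean level with DMSO in CPM per kilobase of deposited gene width (log axis) against log2 fold change for all 12592 tested genes (grey) and the 40 genes (coloured by call). The vertical axis is limited to 1.5 in each direction, which leaves out 231 genes, none of them among the 40. Most of the 40 lie at the right, above 10 CPM per kilobase, and Hmox1 and Gpx3 are the exceptions.

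A further 92 genes of the same pathways were listed for context, and 80 of them passed the filter on low counts. Of these 20 were higher, 27 lower and 33 not called (58.8% called, beside 42.0% of all genes), with a median log2 fold change of -0.02. Scaling by library totals alone turned this split into 26 higher and 23 lower. Among other NRF2 targets 9 of 18 rose and 4 fell (72.2% called, beside 42.0% of all genes tested, with 22.8% higher and 19.2% lower). Akr1b8, an aldo-keto reductase, was at 27.6, 25.4 and 23.1 CPM with DMSO and 105, 102 and 98.0 CPM with NIBR-LTSi, a 4.0-fold rise (log2 fold change 2.0 ± 0.06, adjusted p = 9.39e-10). Slc7a11, the transporter subunit that brings in cystine for glutathione synthesis, rose from 5.33, 5.50 and 4.49 CPM to 15.3, 14.6 and 15.0 CPM (2.93-fold, log2 fold change 1.55 ± 0.10, adjusted p = 2.18e-07). The carbonyl reductase gene Cbr3 rose 1.63-fold. These 3 genes and Gclc rose in the same libraries in which Srxn1 and Nqo1 fell. In the same list Fth1 fell from 2479 ± 162 to 1843 ± 38 CPM (adjusted p = 1.45e-05). Osgin1 fell from 132 ± 4 to 102 ± 2 CPM (adjusted p = 2.53e-05) and Idh1 from 1057 ± 22 to 967 ± 14 CPM (adjusted p = 0.00720). Txnip was placed in the same list and is counted among its 4 falls. It encodes an inhibitory partner of thioredoxin and fell 1.91-fold from 836 ± 5 to 438 ± 6 CPM (adjusted p = 1.55e-09), beside the smaller fall of Txn1.

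The list of NRF2 partners and degradation factors had 1 of 11 genes higher and 3 lower (36.4% called, beside 42.0% of all genes tested). Mafk, a small MAF partner, fell from 102 ± 2 to 75.6 ± 4.1 CPM (adjusted p = 2.47e-05). The other small MAF genes listed, Mafg (log2 fold change 0.06, adjusted p = 0.713) and Maff (0.005, adjusted p = 0.974), were not called. Sqstm1, whose product p62 binds KEAP1, fell from 236 ± 3 to 197 ± 3 CPM. Bach1, a repressor that competes for the same elements, rose 1.16-fold (adjusted p = 0.00612). The call of Cul3, the ubiquitin ligase scaffold used by KEAP1, was marginal (log2 fold change -0.10, adjusted p = 0.0482). It was lost when any library was left out (adjusted p from 0.0660 to 0.118), with library totals only (0.261) and without the low-count filter (0.0951).

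In glutathione supply and turnover, 3 of 13 tested genes rose and 4 fell (53.8% called, beside 42.0% of all genes tested). Dpep1, the membrane dipeptidase that acts after Ggt1 by splitting cysteinylglycine, was at 344, 357 and 339 CPM with DMSO and 176, 169 and 165 CPM with NIBR-LTSi. It fell 2.04-fold (log2 fold change -1.03 ± 0.04, adjusted p = 3.99e-09), while Anpep, an aminopeptidase that can split the same dipeptide and is also an enterocyte marker, rose 1.45-fold from 1769 ± 2 to 2561 ± 23 CPM. Hagh, a glyoxalase that releases glutathione, fell 1.29-fold. Chac1, a cytosolic enzyme that degrades glutathione, rose 2.07-fold from a low 2.78 ± 0.40 CPM (adjusted p = 1.13e-04).

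Other transferases had 2 of 13 tested genes higher, Gstm2 and Gstcd, and 6 lower, among them Gstm7 and Gstm6. In the remaining thiol and peroxide enzymes 5 of 18 rose, Prdx4 among them, and 7 fell. The shares called were 61.5% and 66.7%, beside 42.0% of all genes tested. Those with the smallest p were all lower: the glutaredoxin gene Glrx (1.30-fold), the methionine sulfoxide reductases Msra (1.29-fold) and Msrb1 (1.30-fold), and the selenoprotein gene Selenow (1.24-fold). Of 7 tested oxidant producers none rose and 3 fell, a share of 42.9% called that is close to the 42.0% of all genes tested. Noxa1, Noxo1, Duox2 and Duoxa2 were not called. Nox1, an epithelial NADPH oxidase, had only 37, 31 and 31 counts in the DMSO libraries and 7, 4 and 16 in the NIBR-LTSi libraries. Its fall (log2 fold change -2.03 ± 0.37, adjusted p = 9.83e-04) rests on these few reads. Its membrane partner Cyba fell 1.74-fold from 10.7 ± 1.1 CPM and xanthine dehydrogenase, Xdh, 1.19-fold from 253 ± 16 CPM.

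**Figure D4:**
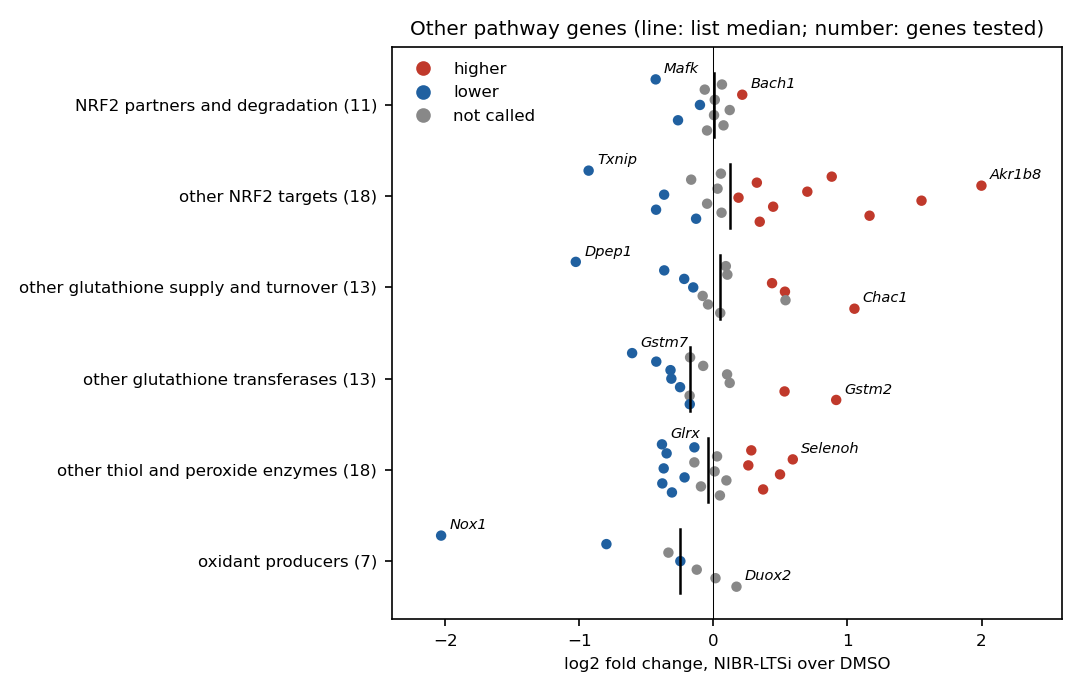
Log2 fold change (NIBR-LTSi over DMSO) of the 80 tested genes in 6 further lists, coloured by call, with a vertical line at each list's median. The list of other NRF2 targets, in which Txnip was placed, spreads from Txnip at -0.93 to Akr1b8 at 2.0. Nox1 lies furthest to the left at -2.03.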

How the data were processed

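Per the labels' protocols, organoids were digested to single cells, RNA was purified on columns and 200 ng per sample entered an Illumina stranded messenger RNA kit. The table deposited by the authors holds raw whole-number counts per gene in 6 libraries and a gene width. Build mm10 and the tool edgeR are named per the submitters' processing notes. No source used here names the aligner, the counter or its use of strand, so reads of genes overlapping on opposite strands cannot be assigned with certainty (7 of the 40 genes share exonic bases with a gene on the other strand in GENCODE vM21).

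From these counts, genes were filtered with filterByExpr (12592 of 24594 rows kept, all 40 members among them), scaled by TMM and tested with edgeR 4.0.16 (R 4.3.3) by the robust quasi-likelihood F-test, two-sided, on group alone, 4 residual degrees of freedom and Benjamini-Hochberg adjustment over all genes at 0.05. Adjusted p-values come from this test except where another is stated. Dividing the size of each log2 fold change by the root of its F statistic gave an approximate standard error (SE). The coefficient of variation between replicates was 6.02%. Chi-square over df between libraries of a group ranged from 4.46 to 11.2, so none was a duplicate. The procedure was tested on simulated data. Positions and promoters come from RefSeq GRCm38.p6, matched by Entrez identifier.

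The members and lists were chosen with earlier results of these data known. Full values are given for 10 regulatory or reference genes and for up to 8 called rises and 8 called falls of largest size, and up to 4 called genes of smallest p for each further list. Other genes named from the further lists were added after their values were seen. Alternatives were DESeq2 1.42.0, limma-voom (limma 3.58.1), scaling by library totals or by DESeq2 size factors, testing without a filter or with 1 CPM in 3 libraries, the replicate number as a block, a per-library smooth correction on gene width, both together, and each library left out.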

Additional observations from a re-analysis of the deposited data

How the results depend on the processing

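In 15 alternative settings the 5 counts of calls kept within 1.5 times their value. Of the 27 called members 22 kept their call throughout, 5 (Gsta4, Gss, Prdx2, Pgd and Nqo1) lost it somewhere, and none changed sign; 5 others (Keap1, Gpx2, Gstm3, Mgst3 and G6pdx) gained a call somewhere. Of the members not called 6 changed sign, and the cause was not tested. With DESeq2 size factors the log2 fold change was -0.0015 for Gpx3 and -0.017 for Txnrd1, and in DESeq2 -0.0015 and -0.017. Txnrd1 was at -0.0014 with at least 1 CPM in 3 libraries, and Sod2 at 0.00070 with library totals only. The width correction gave -0.027 for Gclm and -0.063 for Txnrd1, and with the block -0.025 and -0.063. Over fits without 1 library, Gpx3 ranged from -0.069 to 0.17, Txnrd1 from -0.022 to 0.0082, Gclm from -0.014 to 0.065, Hmox1 from -0.19 to 0.031 and Prdx6 from -0.0041 to 0.061. Whether the replicate numbers pair the libraries is not settled. Deviations from the group means correlated at 0.0482, -0.296 and 0.562 for numbers 1, 2 and 3, and at -0.553 to 0.528 for unlike numbers. With 3 libraries per group these values cannot decide it. With the replicate block alone 10 members were higher and 17 lower, and 4945 of all genes were called, while Cul3 was not (adjusted p = 0.0947). With the block and the width correction together, Gss (0.0712), Nqo1 (0.0881) and Pgd (0.0659) were not called, and Gstm3 (0.0178) and Gstm4 (0.0173) were. Of the other pathway genes named, 29 were run in these settings after the data were seen. Among these 29, Abcc2 changed sign with the width correction (-0.019, and -0.018 with the block).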

Other observations

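The mu-class transferase genes lie side by side on chromosome 3 and did not move together. In order along the chromosome (Gstm5 at 107895854 and Gstm4 ending at 108045179, GRCm38.p6), Gstm5 was not called (20.2 ± 1.9 and 17.7 ± 2.9 CPM, SD, n = 3), Gstm7 fell from 77.6 ± 8.6 to 50.9 ± 1.8 CPM and Gstm6 from 169 ± 7 to 135 ± 4 CPM. The next gene, Gstm3, was not called, Gstm2 rose from 46.9 ± 3.5 to 88.3 ± 0.7 CPM (log2 fold change 0.92 ± 0.05, edgeR adjusted p = 1.34e-07), Gstm1 rose, and Gstm4 was at 70.8 ± 2.5 and 77.1 ± 2.4 CPM (adjusted p = 0.0548; 0.0300 without DMSO replicate 2, 0.00980 with library totals only and 0.00514 with a correction for gene width). Both genes that fell lie on one side of Gstm3 and both that rose on the other. These genes are close relatives, and how shared reads were counted is not given in the sources used here. Gstm4 and Gstm5 were named after their values were seen.

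Exporters of glutathione conjugates of the MRP family were also named after their values were seen, so their count does not describe the family. Of the 4 named, 3 were higher, beside 22.8% of all genes tested. All 4 belong to the list of other NRF2 targets described above, so these 3 rises are already among the 9 of that list. Abcc1 rose from 12.2 ± 0.5 to 22.6 ± 1.4 CPM (edgeR adjusted p = 2.32e-06), Abcc3 from 287 ± 12 to 391 ± 3 CPM (adjusted p = 2.95e-06) and Abcc4 from 3.67 ± 0.55 to 8.30 ± 0.99 CPM (adjusted p = 4.02e-05). Abcc2, the apical form, was at 738 ± 61 and 770 ± 22 CPM and was not called (adjusted p = 0.410).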
